A study of Homo sapiens with 8 samples.

Results

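The beta-catenin destruction complex, its targets and the tankyrases were described through 10 genes of a genome-wide knockout screen, namely APC, AXIN1, AXIN2, GSK3B, CSNK1A1, CTNNB1, TCF7L2, LRP6, TNKS and TNKS2. They were taken from the table by gene name. They made up 10 of the 18053 gene names in the count table, and 40 of its 71090 guides. The screen used PC9-Cas9 cells, which derive from a human non-small cell lung cancer whose EGFR kinase is switched on by mutation and which had been made to express the Cas9 nuclease. Every group carried TKOv3, a pooled library of single guide RNAs, so that a typical cell lost 1 gene and the reads of a guide counted the cells that carried it. There were 4 groups with 2 libraries each. The T0 group was collected when the drugs were added, the untreated group after 72 h in vehicle (DMSO), and the drug groups after 72 h in 10 µM erlotinib or 0.1 µM osimertinib, which are EGFR kinase inhibitors. Untreated cells were passaged a single time, on day 1, which the methods do not say of drug-treated cells, so passage and drug cannot be told apart in the comparisons with untreated cells. The methods also give the cells infected with the library by treatment condition. If these infections were kept apart, infection and drug cannot be told apart either. Dead cells were not collected, and the loss of each protein was not measured.

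Wnt signalling turns on the level of beta-catenin, which the gene CTNNB1 encodes. Without a Wnt signal, the scaffolds AXIN1, AXIN2 and APC hold beta-catenin beside the kinases CK1-alpha (CSNK1A1) and GSK3-beta (GSK3B), which phosphorylate it and so mark it for destruction by the proteasome. With a Wnt signal, the co-receptor LRP6 draws AXIN to the membrane, beta-catenin accumulates, and TCF7L2 and its relatives carry it to target genes. Tankyrases (TNKS and TNKS2) add poly-ADP-ribose to AXIN, which leads to its breakdown, and tankyrase inhibitors therefore stabilise AXIN.

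Sequencing gave 32096281 to 39200466 reads per library, with a median of 445 to 549 reads per guide. Replicate libraries varied more than counting error allows, and the chi-square divided by its degrees of freedom, which counting error alone would set near 1, was 2.71 for T0, 3.20 for erlotinib, 3.51 for untreated and 5.18 for osimertinib. Of the 40 guides to the 10 genes, 37 passed a filter that removed the lowest 5% of guides by mean normalised count (under 46.0 reads). The guides that did not pass were 1 each to AXIN1, CSNK1A1 and TNKS, with means of 42.7, 41.1 and 36.2 reads. The guide just inside the limit was also one to CSNK1A1, with a mean of 55.3 reads. All 10 genes were tested.

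The level of a gene is the median over its kept guides of log2 read abundance, relative to non-targeting guides and to the mean of the T0 libraries, so a negative level means that cells without the gene became rarer. A log2 fold change (L2FC) is a difference between the mean levels of groups of 2 libraries, and is followed by its SE. Unless stated otherwise, adjusted p-values come from limma with Benjamini-Hochberg adjustment over all 17761 genes, and a gene was called at an adjusted p under 0.05. Slower growth and more death both lower a level and cannot be told apart here. The replicates are described as biological, but neither labels nor methods say whether cultures of a group were kept apart, so a p-value here speaks of the spread between libraries alone, which may be technical.

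Cells without AXIN1 became more abundant under both EGFR inhibitors, by 1.23-fold under erlotinib and 1.48-fold under osimertinib relative to untreated cells. Cells without CSNK1A1 were 1.39-fold and 1.40-fold more abundant, and cells without GSK3B became less abundant under osimertinib, at 0.851 of the untreated abundance. Apart from that of AXIN1 under osimertinib, each of these calls was lost when certain single libraries were left out. Under erlotinib, 2 of the 10 genes were called higher and 0 lower, when 4.88% of all genes were called higher and 2.25% lower. Under osimertinib, 2 were called higher and 1 lower, against 5.31% and 4.83% of all genes. The median L2FC of the 10 genes was 0.06 under erlotinib and 0.02 under osimertinib, beside 0.02 and 0.01 for all genes. Both comparisons use the same untreated libraries and so are not independent of each other.

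**Figure D1:**
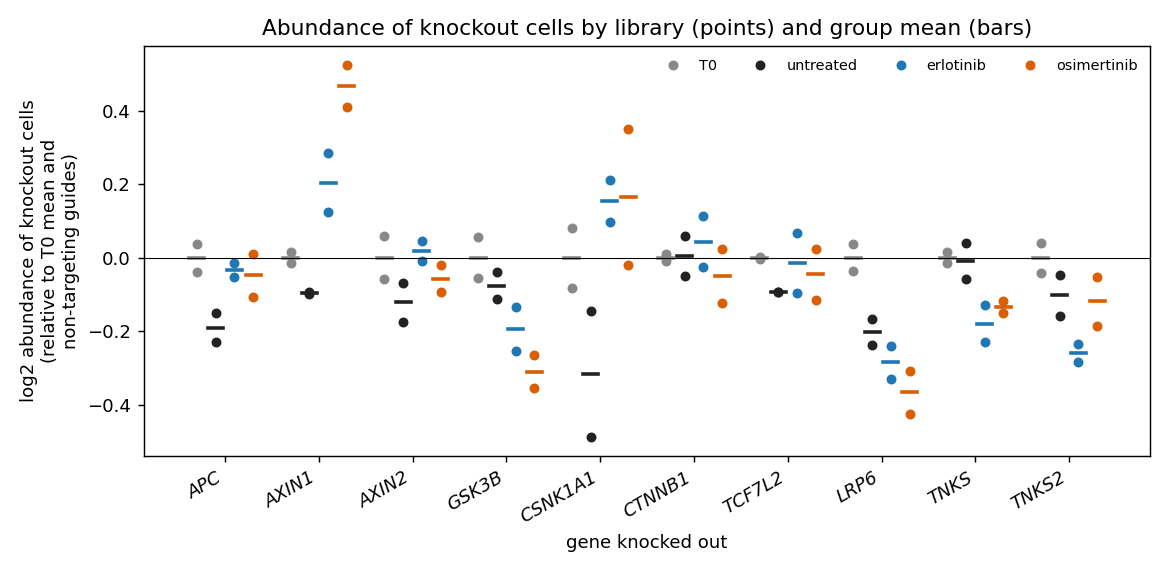
Level of each of the 10 genes (log2 abundance of knockout cells, set against non-targeting guides and the mean of T0) in every library, with points for libraries, bars for group means and colours for the 4 groups. The osimertinib points of AXIN1, at 0.41 and 0.53, lie above all other points of that gene, whereas the 2 untreated points of CSNK1A1, at -0.15 and -0.49, lie far apart.

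The scaffold AXIN1 limits how much destruction complex a cell can assemble. Its levels were -0.02 and 0.02 in T0 libraries, -0.10 and -0.09 in untreated ones, 0.28 and 0.12 with erlotinib, and 0.41 and 0.53 with osimertinib. The libraries of the 4 groups did not overlap, and lay, from the lowest, in the order untreated, T0, erlotinib, osimertinib. Drug and untreated libraries were separate in this way for 51.0% of all genes under erlotinib and 51.5% under osimertinib. Of the neighbours in this order, untreated and T0 did not differ beyond their spread (L2FC -0.10 ± 0.07, adjusted p = 0.253), while erlotinib lay above T0 (0.20 ± 0.07, adjusted p = 0.0289; this call was lost without either T0 library or without erlotinib replicate 1). The difference between the drugs was -0.26 ± 0.07 for erlotinib minus osimertinib and missed the threshold (adjusted p = 0.0754). The doses of the drugs differ, so this sets conditions and not compounds side by side.

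Relative to untreated cells, loss of AXIN1 raised abundance by 0.56 ± 0.07 under osimertinib (adjusted p = 6.7e-05, 95% interval 0.42 to 0.71), the 36th highest L2FC of all genes tested. Under erlotinib the L2FC was 0.30 ± 0.07 (adjusted p = 0.0130), with a rank of 526. The osimertinib call held when any of the 8 libraries was left out, with an L2FC between 0.49 and 0.59. The erlotinib call was lost without untreated replicate 1 (0.30, adjusted p = 0.0863), without untreated replicate 2 (0.31, adjusted p = 0.0612), or without erlotinib replicate 1 (0.21, adjusted p = 0.185). Relative to T0, the gain under osimertinib was 0.47 ± 0.07 (adjusted p = 4.28e-05).

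The guides to AXIN1 moved the same way. Guide 1 had 609 and 699 reads at T0, 640 and 660 without drug, 819 and 806 with erlotinib, and 907 and 1064 with osimertinib. Guide 2 had 624 and 633, 610 and 657, 728 and 656, and 979 and 1023 reads in the same order. Guide 4 had 881 and 962, 939 and 1062, 1060 and 949, and 1330 and 1388 reads. After scaling for depth, both osimertinib libraries held more of guides 2 and 4 than any other library, whereas for guide 1 osimertinib replicate 1, at 861 normalised reads, lay just below the erlotinib libraries, at 891 and 870. In edgeR's quasi-likelihood test with Benjamini-Hochberg adjustment over all guides, the osimertinib L2FC was 0.56 for guide 1 (adjusted p = 5.68e-05), 0.63 for guide 2 (adjusted p = 9.13e-06) and 0.41 for guide 4 (adjusted p = 0.00111). Under erlotinib only guide 1 passed, with an L2FC of 0.50 (adjusted p = 0.000710). Guide 3, which was below the count filter, had 32 and 37, 40 and 21, 32 and 46, and 69 and 64 reads, and its log2 ratio of osimertinib to untreated was 1.07. That guide took no part in the gene value.

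**Figure D2:**
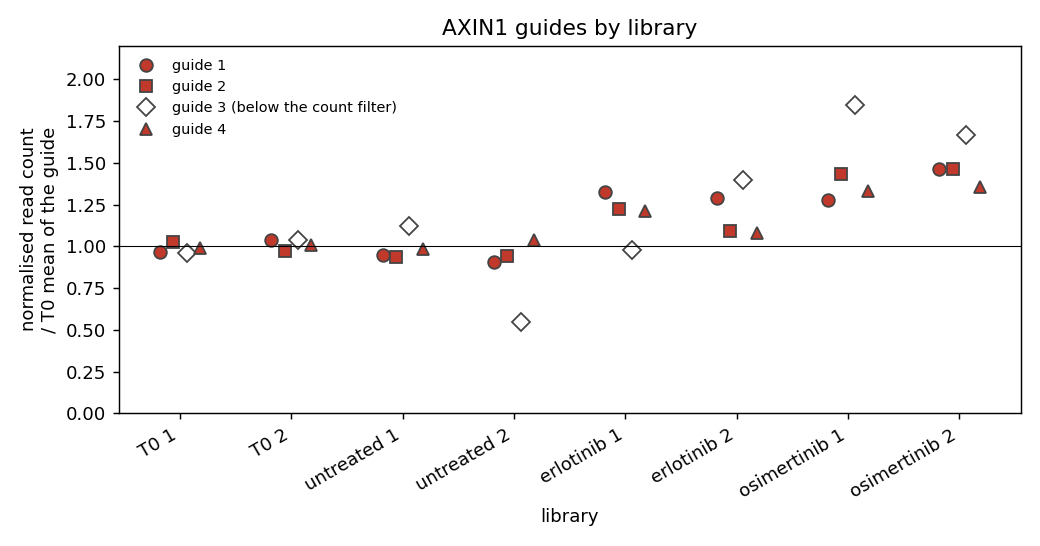
Normalised read count of each AXIN1 guide divided by its T0 mean (linear axis) in the 8 libraries, with a marker shape per guide and an open marker for the guide below the count filter. All kept guides lie between 1.28 and 1.46 in the osimertinib libraries and between 0.909 and 1.04 in the untreated libraries.

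A cut by Cas9 can itself affect a cell in a manner shared by genes close together on a chromosome, so the 5 nearest tested genes on each side of a member were read out as well. Under osimertinib the 10 neighbours of AXIN1 had L2FC values between -0.04 and 0.21 with a median of 0.11, and 0 of them were called. Under erlotinib they lay between -0.02 and 0.27 with a median of 0.11, and 1 was called higher. AXIN1 lay above all 10 neighbours in both comparisons. The neighbour median also lay above that of all genes, and its part in the AXIN1 value was not tested.

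AXIN2, the related scaffold that Wnt signalling itself induces, was not called in any comparison. Its levels were -0.06 and 0.06 in T0 libraries, -0.07 and -0.18 in untreated ones, 0.05 and -0.01 with erlotinib, and -0.02 and -0.09 with osimertinib. The L2FC relative to untreated was 0.14 under erlotinib (95% interval -0.01 to 0.29) and 0.06 under osimertinib (95% interval -0.08 to 0.21). The osimertinib interval of AXIN2 ends below that of AXIN1, which begins at 0.42, although the difference between the genes was not tested.

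APC, the other scaffold and a tumour suppressor of the colon, was called lower in untreated cells relative to T0, with an L2FC of -0.19 ± 0.07 (adjusted p = 0.0310). The median of all genes in that comparison was -0.16, and 46.3% of them were called lower. With TMM scaling and no subtraction of non-targeting guides the APC value was -0.015 and was not called (adjusted p = 0.922). APC levels were -0.15 and -0.23 in untreated libraries, -0.05 and -0.01 with erlotinib, and -0.11 and 0.01 with osimertinib. The drug libraries lay above the untreated libraries, a separation seen, in either direction, for 51.0% of all genes under erlotinib and 51.5% under osimertinib. Neither L2FC passed, at 0.16 under erlotinib (adjusted p = 0.194) and 0.14 under osimertinib (adjusted p = 0.202). With the mean over guides in place of the median, the osimertinib value was 0.22 and passed (adjusted p = 0.0448). Guide 1 to APC stood apart from the others, with 326 and 361 reads in T0 libraries, 240 and 268 in untreated ones, 350 and 330 with erlotinib, and 335 and 479 with osimertinib. Its L2FC was -0.54 for untreated relative to T0 (adjusted p = 0.00683), 0.60 for erlotinib relative to untreated (adjusted p = 0.0132) and 0.64 for osimertinib relative to untreated (adjusted p = 0.00415) in the edgeR test. The other 3 guides lay between -0.03 and 0.13 under erlotinib and between 0.03 and 0.14 under osimertinib. The call for untreated relative to T0 was lost without any 1 of the T0 and untreated libraries, with an L2FC between -0.12 and -0.23.

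CSNK1A1 encodes the kinase that primes beta-catenin for GSK3-beta. Its levels were -0.08 and 0.08 in T0 libraries, -0.15 and -0.49 in untreated ones, 0.21 and 0.10 with erlotinib, and -0.02 and 0.35 with osimertinib. The drug libraries did not overlap the untreated libraries, which held for 51.0% of all genes under erlotinib and 51.5% under osimertinib. The libraries within the untreated group and within the osimertinib group lay far apart. The L2FC was -0.32 ± 0.11 for untreated relative to T0 (adjusted p = 0.0287), 0.47 ± 0.11 for erlotinib relative to untreated (adjusted p = 0.0133) and 0.48 ± 0.11 for osimertinib relative to untreated (adjusted p = 0.0105). Relative to T0 neither drug group was called, at 0.15 under erlotinib (adjusted p = 0.264) and 0.16 under osimertinib (adjusted p = 0.235).

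Single libraries changed the CSNK1A1 calls. Without untreated replicate 2 the L2FC was 0.27 under erlotinib (adjusted p = 0.266) and 0.30 under osimertinib (adjusted p = 0.160), and without osimertinib replicate 2 it was 0.27 (adjusted p = 0.121). Guide 4 had 43 and 38 reads in T0 libraries, 27 and 38 in untreated ones, 86 and 49 with erlotinib, and 66 and 91 with osimertinib, and alone passed the edgeR test, with L2FC values of 1.23 (adjusted p = 0.0278) and 1.24 (adjusted p = 0.0176). Guide 2 had L2FC values of 0.51 and 0.36 and guide 3 of 0.15 and 0.33, none of which passed. With guides under a mean of 100 reads left out, the erlotinib L2FC was 0.34 and missed the threshold (adjusted p = 0.0536), while the osimertinib L2FC was also 0.34 and passed (adjusted p = 0.0385). The 10 neighbours of CSNK1A1 lay between -0.13 and 0.14 under erlotinib and between -0.24 and 0.06 under osimertinib.

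GSK3B encodes the kinase that completes the phosphorylation of beta-catenin and also acts on glycogen synthase and many other proteins. Its levels were -0.06 and 0.06 in T0 libraries, -0.04 and -0.11 in untreated ones, -0.25 and -0.13 with erlotinib, and -0.35 and -0.26 with osimertinib. Both osimertinib libraries lay below every library of the other groups. The L2FC relative to untreated was -0.23 ± 0.07 under osimertinib (adjusted p = 0.0429) and -0.12 ± 0.07 under erlotinib (adjusted p = 0.378), so the sign was opposite to that of AXIN1 and CSNK1A1. All 4 guides were negative under osimertinib, at -0.22, -0.16, -0.38 and -0.23, and none passed alone. The 10 neighbours of GSK3B lay between -0.22 and 0.08 under osimertinib, with a median of -0.06, and 1 was called lower. Under erlotinib they lay between -0.16 and 0.24, with a median of -0.02, and 1 was called higher. The part of the neighbourhood in the GSK3B value was not tested. The osimertinib call lay close to the threshold. It was lost without either untreated library (-0.20, adjusted p = 0.215, and -0.27, adjusted p = 0.0740), without either osimertinib library (-0.20, adjusted p = 0.160, and -0.26, adjusted p = 0.0615), without either T0 library (adjusted p = 0.0568 and 0.0511) and with no filter on low guides (-0.23, adjusted p = 0.0515).

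**Figure D3:**
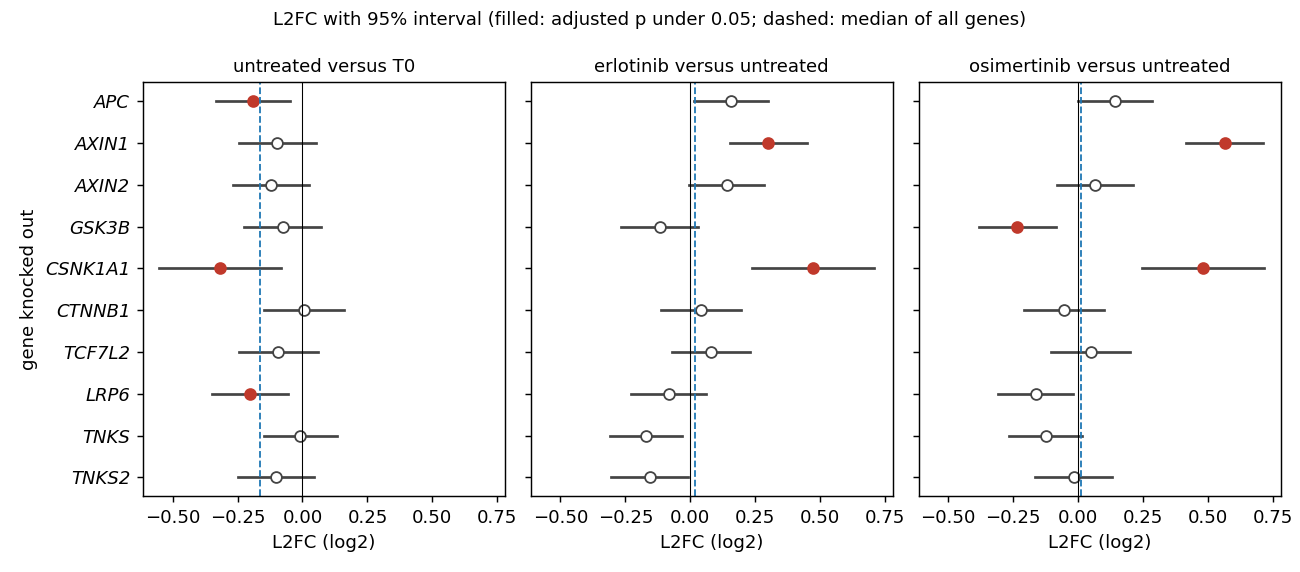
L2FC (log2, horizontal axis) of the 10 genes for untreated relative to T0 and for each drug relative to untreated, with 95% intervals, filled points for calls and a dashed line at the median of all genes. AXIN1 at 0.56 and CSNK1A1 at 0.48 stand to the right under osimertinib, and GSK3B at -0.23 stands to the left.

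**Figure D4:**
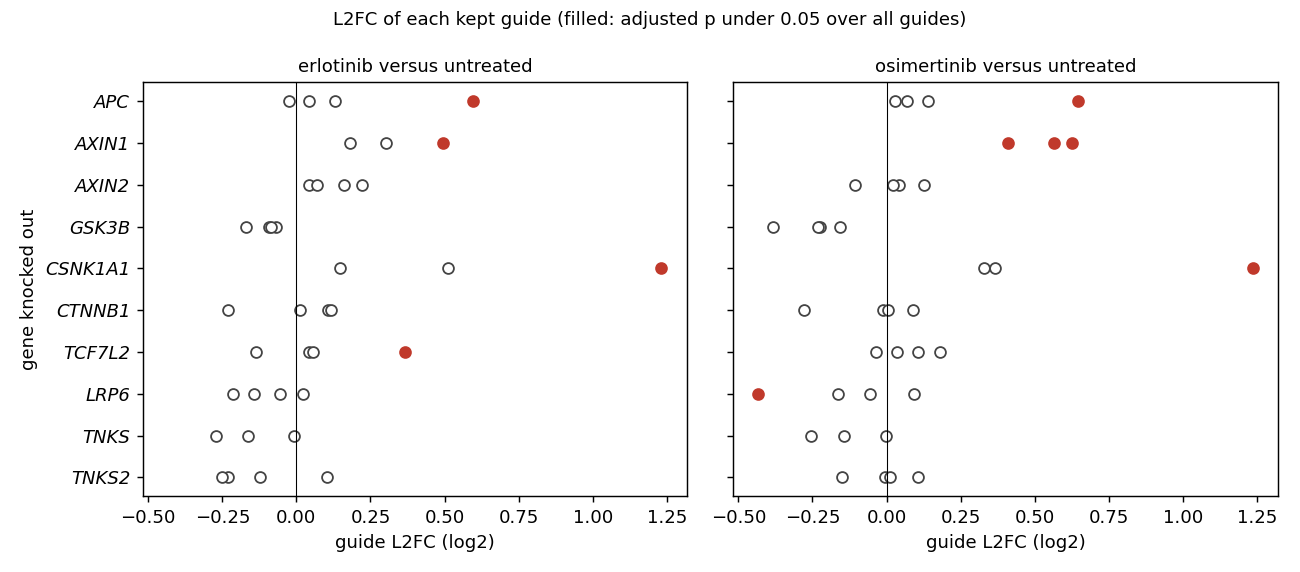
L2FC (log2) of each of the 37 kept guides for erlotinib and osimertinib relative to untreated, 1 point per guide, filled where edgeR's adjusted p was under 0.05. All 3 AXIN1 guides are filled under osimertinib, between 0.41 and 0.63, while CSNK1A1 and APC each have 1 filled point away from the rest.

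Beta-catenin itself and its partner TCF7L2 were not called in any of the 6 comparisons. CTNNB1 levels were 0.01 and -0.01 in T0 libraries, -0.05 and 0.06 in untreated ones, -0.02 and 0.11 with erlotinib, and -0.12 and 0.02 with osimertinib, and all groups overlapped. Its L2FC was 0.00 for untreated relative to T0 (95% interval -0.15 to 0.16), 0.04 for erlotinib relative to untreated (-0.11 to 0.19) and -0.05 for osimertinib relative to untreated (-0.21 to 0.10). TCF7L2 levels were -0.00 and 0.00 in T0 libraries, -0.09 and -0.09 in untreated ones, -0.09 and 0.07 with erlotinib, and -0.11 and 0.03 with osimertinib. Its L2FC relative to untreated was 0.08 under erlotinib (95% interval -0.07 to 0.23) and 0.05 under osimertinib (-0.10 to 0.20). Guide 1 to TCF7L2 passed the edgeR test under erlotinib, with an L2FC of 0.37 (adjusted p = 0.0332), whereas its other guides lay between -0.14 and 0.06.

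The co-receptor LRP6 receives the Wnt signal together with a Frizzled receptor. Its levels were 0.04 and -0.04 in T0 libraries, -0.24 and -0.17 in untreated ones, -0.33 and -0.24 with erlotinib, and -0.42 and -0.31 with osimertinib. All 6 endpoint libraries lay below both T0 libraries. A group was separate from T0 in this way, in either direction, for 81.0% of all genes in untreated, 76.7% under erlotinib and 74.4% under osimertinib. The median L2FC of all genes relative to T0 was -0.16, -0.15 and -0.15 in the same order. For LRP6 the L2FC relative to T0 was -0.20 ± 0.07 in untreated (adjusted p = 0.0254), -0.28 ± 0.07 under erlotinib (adjusted p = 0.00379) and -0.37 ± 0.07 under osimertinib (adjusted p = 0.000396). Relative to untreated it was -0.08 under erlotinib (adjusted p = 0.549) and -0.16 under osimertinib (adjusted p = 0.147), and neither passed. Guide 3 to LRP6, with 515 and 470 reads in untreated and 357 and 391 under osimertinib, was the 1 guide to the 10 genes called lower relative to untreated (L2FC -0.43, adjusted p = 0.0361 in the edgeR test).

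Tankyrase knockouts were not called relative to untreated cells. TNKS levels were 0.01 and -0.01 in T0 libraries, 0.04 and -0.06 in untreated ones, -0.23 and -0.13 with erlotinib, and -0.12 and -0.15 with osimertinib, so both drug groups lay below untreated. Such a separation, in either direction, held for 51.0% of all genes under erlotinib and 51.5% under osimertinib. The L2FC of TNKS was -0.17 under erlotinib (adjusted p = 0.145) and -0.12 under osimertinib (adjusted p = 0.258). TNKS2 levels were -0.04 and 0.04 in T0 libraries, -0.16 and -0.05 in untreated ones, -0.23 and -0.28 with erlotinib, and -0.05 and -0.18 with osimertinib. Its L2FC was -0.16 under erlotinib (adjusted p = 0.214) and -0.02 under osimertinib (adjusted p = 0.912), and erlotinib minus osimertinib was -0.14 (adjusted p = 0.411). Relative to T0 both were called lower under erlotinib, TNKS at -0.18 (adjusted p = 0.0397) and TNKS2 at -0.26 (adjusted p = 0.00794), and neither under osimertinib, where TNKS was at -0.13 (adjusted p = 0.110) and TNKS2 at -0.12 (adjusted p = 0.176). With the mean over guides TNKS passed under osimertinib too (-0.15, adjusted p = 0.0463), as it did with edgeR on summed counts (-0.15, adjusted p = 0.0223). Over all 8 alternatives of processing that L2FC ran from -0.15 to 0.03. Under erlotinib relative to T0 it ran from -0.19 to -0.02 for TNKS and from -0.26 to -0.10 for TNKS2. Both erlotinib calls were lost with the median of all targeting guides as reference. All genes had a median L2FC of -0.15 relative to T0 under either drug. TNKS and TNKS2 can act on the same substrates, and a typical cell lost 1 gene. Whether either makes up for loss of the other was not tested.

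Of the 37 kept guides, 4 were called higher and 0 lower under erlotinib relative to untreated, 1 each to APC, AXIN1, CSNK1A1 and TCF7L2, when 2.1% and 0.864% of all targeting guides were called higher and lower. Under osimertinib 5 were called higher, 3 of them to AXIN1 and 1 each to APC and CSNK1A1, and 1 lower, to LRP6, against 2.66% and 2.07% of all targeting guides. AXIN1 was the gene among the 10 with more than 1 called guide in these comparisons.

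**Figure D5:**
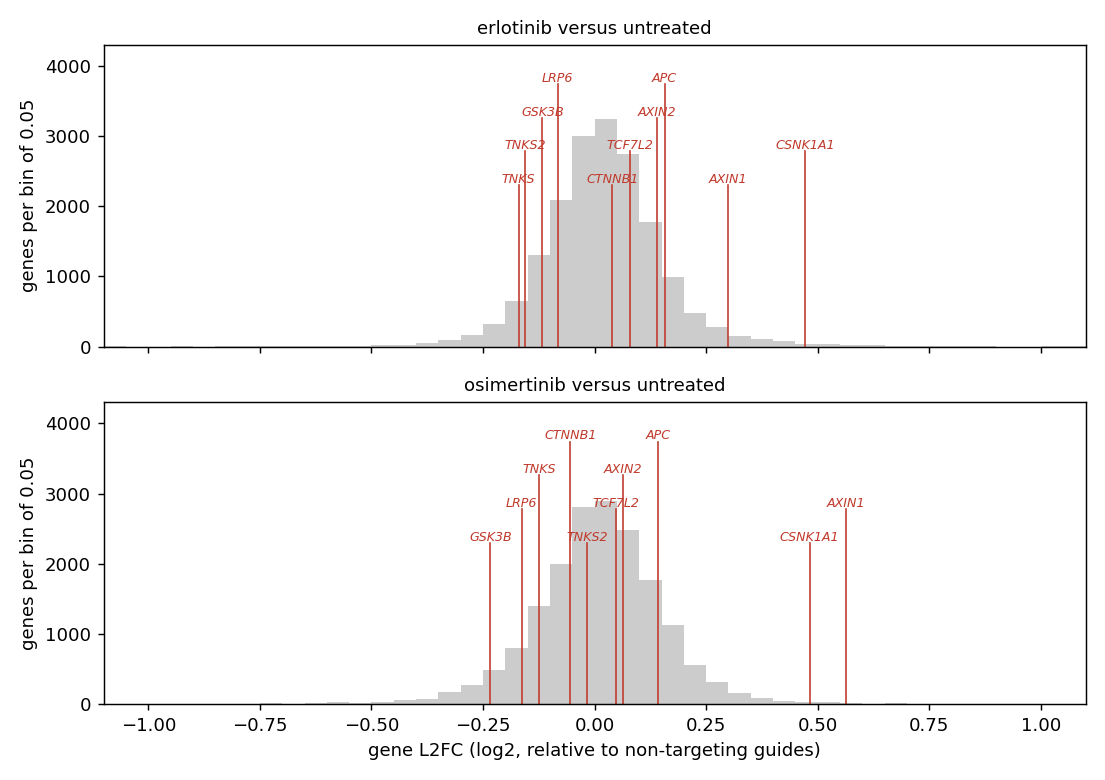
Histograms of the gene L2FC (log2, bins of 0.05) over all genes for erlotinib and osimertinib relative to untreated, with a line for each of the 10 genes. Most lines fall within the bulk around 0.02 and 0.01, the medians of all genes, while AXIN1 and CSNK1A1 fall in the right tail at 0.30 and 0.47 under erlotinib and at 0.56 and 0.48 under osimertinib.

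From T0 to the untreated endpoint, 0 of the 10 genes were called higher and 3 lower (APC, CSNK1A1 and LRP6), when 0.0338% of all genes were called higher and 46.3% lower. The median L2FC of the 10 genes was -0.10, beside -0.16 for all genes, and the 3 calls lay between -0.19 and -0.32. Under erlotinib relative to T0, 1 was called higher (AXIN1) and 4 lower (GSK3B, LRP6, TNKS and TNKS2), against 0.304% and 41% of all genes. Under osimertinib relative to T0, 1 was called higher (AXIN1) and 2 lower (GSK3B and LRP6), against 1.03% and 43.9%. For GSK3B these L2FC values were -0.19 (adjusted p = 0.0366) and -0.31 (adjusted p = 0.00189). AXIN1 had ranks of 48 and 17 from the highest under erlotinib and osimertinib. The genes not called under either drug relative to T0 were APC, at -0.03 and -0.05, AXIN2, at 0.02 and -0.06, CSNK1A1, CTNNB1, at 0.04 and -0.05, and TCF7L2, at -0.01 and -0.04. From T0 to untreated, AXIN2 was at -0.12 (adjusted p = 0.149), GSK3B at -0.08 (adjusted p = 0.363), TCF7L2 at -0.09 (adjusted p = 0.276), TNKS at -0.01 (adjusted p = 0.914) and TNKS2 at -0.10 (adjusted p = 0.226).

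The calls relative to T0 depended on the reference. With the median of all targeting guides in place of the non-targeting guides, 0 of the 10 genes were called for untreated relative to T0 and 1, AXIN1, for erlotinib relative to T0. Under osimertinib relative to T0 that reference left AXIN1 and LRP6 called, took GSK3B below the threshold (-0.15, adjusted p = 0.133) and brought CSNK1A1 past it (0.33, adjusted p = 0.0404). Single libraries mattered as well. For untreated relative to T0, the LRP6 call was lost without T0 replicate 1 or without either untreated library (-0.16 to -0.23), and the CSNK1A1 call without T0 replicate 2 (-0.27) or untreated replicate 2 (-0.11). For erlotinib relative to T0, the GSK3B and TNKS calls were lost without either T0 library or erlotinib replicate 1, the TNKS2 call without T0 replicate 2 or erlotinib replicate 2, and the LRP6 call without T0 replicate 1. The calls of AXIN1, GSK3B and LRP6 for osimertinib relative to T0 held without any 1 library. In that comparison 9 of the 10 neighbours of GSK3B were called lower (median -0.26), against 43.9% of all genes. For LRP6 it was 2 of 10 (median -0.13), and for AXIN1 1 of 10 (median -0.01). Under erlotinib relative to T0, 7 of the 10 neighbours of GSK3B were called lower (median -0.23). The part of neighbours in these values was not tested. Of guides relative to T0, 0 were called higher and 2 lower in untreated (APC and LRP6), against 0.0742% and 20.6% of all targeting guides. Under erlotinib 1 was called higher and 5 lower, against 0.212% and 17.9%, and under osimertinib 3 were called higher, all to AXIN1, and 6 lower, against 0.783% and 23.6%.

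Directly between erlotinib and osimertinib, 0 of the 10 genes were called by limma in either direction, when 1.13% of all genes were called higher under erlotinib and 0.242% lower. At an unadjusted p under 0.05, 1 of the 10 passed, AXIN1, when 2336 of all 17761 genes did. The edgeR test on counts summed over guides called AXIN1 as well, with an L2FC of -0.21 (adjusted p = 0.0174). Of the 37 guides, 0 were called by edgeR in either direction, against 0.224% and 0.095% of all targeting guides, and 3 had an unadjusted p under 0.05. The L2FC between the drugs was -0.14 for TNKS2, -0.05 for TNKS, -0.01 for CSNK1A1, 0.01 for APC, 0.03 for TCF7L2, 0.08 for AXIN2 and LRP6, 0.09 for CTNNB1 and 0.12 for GSK3B.

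Further genes of the pathway were read from lists of 7 kinds. Relative to untreated, limma called 4.88% of all genes higher and 2.25% lower under erlotinib, and 5.31% and 4.83% under osimertinib. An unadjusted p under 0.05 was reached by 3648 of all 17761 genes under erlotinib and by 4439 under osimertinib. With edgeR on summed counts 2010 and 3022 of all genes were called. Of 18 other cytoplasmic regulators of beta-catenin, 0 were called higher and 1 lower under each drug relative to untreated, with a median of 0.05 under erlotinib and 0.01 under osimertinib. The gene called lower was FBXW11, an F-box protein of the ubiquitin ligase that recognises phosphorylated beta-catenin and other substrates, at -0.49 (adjusted p = 0.000102) and -0.56 (adjusted p = 3.38e-05). It was already lower in untreated cells relative to T0, at -0.56 (adjusted p = 2.23e-06). Its paralog BTRC was not called under either drug, at 0.21 under erlotinib (adjusted p = 0.162) and 0.04 under osimertinib (adjusted p = 0.838). GSK3A, the paralog of GSK3B, was at -0.00 under erlotinib (95% interval -0.14 to 0.14) and at 0.01 under osimertinib (95% interval -0.13 to 0.15), and CSNK1A1L, the paralog of CSNK1A1, was at -0.05 and -0.06, none of them called.

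Among 16 nuclear partners of TCF and beta-catenin, 3 were called higher and 0 lower under erlotinib (median 0.05), against 4.88% and 2.25% of all genes. Under osimertinib 2 were called higher and 0 lower (median 0.10), against 5.31% and 4.83%. CREBBP and EP300, paired histone acetyltransferases that serve many transcription factors, were at 0.30 (adjusted p = 0.00846) and 0.26 (adjusted p = 0.0346) under erlotinib and at 0.55 (adjusted p = 4.03e-05) and 0.54 (adjusted p = 9.66e-05) under osimertinib. TBL1XR1, a corepressor subunit that also binds beta-catenin, was at 0.25 under erlotinib (adjusted p = 0.0305) and at -0.10 under osimertinib (adjusted p = 0.395). The calls of CREBBP and EP300 under osimertinib held without any 1 library. Under erlotinib, CREBBP was lost without erlotinib replicate 2, EP300 without T0 replicate 1, erlotinib replicate 1 or either untreated library as well as with TMM scaling (adjusted p = 0.0540) or the targeting-guide reference (adjusted p = 0.0524), and TBL1XR1 without any 1 of the erlotinib and untreated libraries. These proteins act well beyond Wnt signalling.

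At the membrane, 0 of 21 genes for Wnt ligands and their secretion were called by limma under erlotinib (median -0.00), and 2 had an unadjusted p under 0.05. By limma WNT6 was at 0.24 (adjusted p = 0.0703) and WNT16 at 0.21 (adjusted p = 0.0705). With edgeR on summed counts 2 were called higher, WNT6 (adjusted p = 0.0398) and WNT2 (0.18, adjusted p = 0.0302). Under osimertinib 3 were called higher and 0 lower (median 0.00), namely WNT6 at 0.29, WNT16 at 0.28 and WNT2 at 0.27, and each of these calls was lost without osimertinib replicate 2 and without 1 of the untreated libraries. Of 17 tested genes for Wnt and R-spondin receptors, 2 were called higher and 1 lower under erlotinib (median 0.05), and 2 higher and 2 lower under osimertinib (median 0.08). The Frizzled receptors FZD5 and FZD9 were higher, at 0.32 and 0.26 under erlotinib and 0.31 and 0.32 under osimertinib. Under both drugs the FZD5 call was lost without either untreated library, and also without erlotinib replicate 1 or, under osimertinib, either osimertinib library. Under erlotinib the FZD5 call was also lost with TMM scaling, the targeting-guide reference, no filter or the mean over guides (adjusted p between 0.0507 and 0.0577). The FZD9 call was lost without untreated replicate 2 under both drugs, and under erlotinib also without untreated replicate 1, erlotinib replicate 2 or T0 replicate 1. Lower were the chaperone of LRP5 and LRP6 listed as MESDC2, at -0.35 (adjusted p = 0.00934) and -0.44 (adjusted p = 0.00189), and, under osimertinib, LRP5 at -0.32 (adjusted p = 0.00614). LRP5, the paralog of LRP6, was at -0.08 under erlotinib (adjusted p = 0.535), and the difference between the drugs was 0.23 (adjusted p = 0.103). The MESDC2 call under erlotinib was lost without erlotinib replicate 2 or untreated replicate 1, and the LRP5 call without untreated replicate 1 (adjusted p = 0.0509).

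Of 18 extracellular and membrane inhibitors of Wnt, 0 were called by limma under either drug (medians 0.00 and 0.04), 2 and 3 had an unadjusted p under 0.05, and edgeR on summed counts called 0 and 1, KREMEN1. The values farthest from 0 were FRZB at 0.16 and DKK1 at -0.15 under erlotinib, and KREMEN1 at 0.23 and APCDD1 at -0.18 under osimertinib, none of which passed in limma. Of 8 tankyrase partners and substrates, 0 were called by limma under erlotinib (median -0.01), with 2 at an unadjusted p under 0.05 and 2 called higher by edgeR on summed counts. There AMOTL2 was at 0.24 (adjusted p = 0.0762) and RNF146, the ubiquitin ligase that removes AXIN after tankyrase has modified it, at 0.18 (adjusted p = 0.0978). Under osimertinib 2 were called higher and 0 lower (median 0.00), the angiomotin family member AMOTL2 at 0.34 (adjusted p = 0.00838) and RNF146 at 0.30 (adjusted p = 0.00631). The RNF146 call was lost without untreated replicate 1 (adjusted p = 0.0756), and the AMOTL2 call without untreated replicate 2 or osimertinib replicate 2. Of 9 adherens junction genes, the other site where beta-catenin works, 0 were called by limma under either drug (medians -0.09 and -0.00), with 3 and 2 at an unadjusted p under 0.05, and edgeR on summed counts called 1 and 3. CTNND1 was at -0.18 and -0.19 and JUP at -0.17 under erlotinib, and CDH2 at 0.17 under osimertinib, none of which passed in limma.

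From T0 to untreated the calls were 0 higher and 6 lower among the cytoplasmic regulators, 0 and 1 among the nuclear partners, 0 and 9 among ligands, 0 and 8 among receptors, 0 and 9 among inhibitors, 0 and 4 among tankyrase partners, and 0 and 3 among adherens junction genes, beside the 46.3% of all genes called lower. In the same order of lists, 5, 2, 7, 4, 6, 5 and 5 genes were called lower under erlotinib relative to T0, beside 41% of all genes. Under osimertinib they were 5, 2, 7, 5, 7, 4 and 5, beside 43.9%. Called higher relative to T0 under drug were CREBBP, at 0.32 under erlotinib (adjusted p = 0.000989) and 0.58 under osimertinib (adjusted p = 1.57e-06), EP300, at 0.45 under osimertinib (adjusted p = 6.67e-05), and FZD3, at 0.21 under osimertinib (adjusted p = 0.0136). Of all genes, 0.304% were called higher under erlotinib and 1.03% under osimertinib. The FZD3 call was lost without T0 replicate 2 (0.16). Directly between the drugs, limma called 1 gene in these lists, TBL1XR1. With edgeR on summed counts CREBBP (-0.26, adjusted p = 0.000892) and EP300 (-0.26, adjusted p = 0.000431) were called lower under erlotinib as well. EP300, at -0.29 in limma (adjusted p = 0.0525), also passed with the replicate block (adjusted p = 0.0361), a prior count of 5 (adjusted p = 0.0496) or guides under a mean of 100 reads left out (adjusted p = 0.0470), and CREBBP, at -0.26 (adjusted p = 0.0631), passed without osimertinib replicate 2 (adjusted p = 0.0460).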

How the data were processed

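As the labels and methods describe it, genomic DNA of PC9-Cas9 cells went through 2 rounds of PCR on the guide inserts without molecular identifiers, and reads were trimmed and mapped to the TKOv3 library with a single mismatch allowed (Bowtie2 in the methods, Bowtie 1.3.1 in the submitters' processing notes). The values deposited by the authors are counts of reads for each guide, not normalized, for 4 groups of 2 libraries. No guide sequences were used here. Precision from read counts covers counting error only.

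Of 50 gene names that had turned into amounts of money, all but 1 were restored through RefSeq names, and the 4 guides of that name were left out. Guides in the lowest 5% by mean were removed, which left 67531 guides, 138 of them non-targeting. Log2 counts scaled to library size, with a prior count of 1, were centred per guide, reduced to the median over a gene's guides (at least 2) less the non-targeting median, and fitted for all 8 libraries with limma 3.58.1 in R 4.3.3 (residual degrees of freedom 4, prior 13.2). This replaced the study's resampling test. Guides were tested on counts with edgeR 4.0.16 (quasi-likelihood F-test, scaled on the non-targeting guides). Tests were two-sided. The scripts were tested on simulated data.

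The 10 genes and the other gene lists were chosen with earlier results of these data known. All 10 were named in each comparison. In the other lists at most the 4 called genes with the largest change, or up to 2 not called, were named for the comparisons with untreated cells, and GSK3A, LRP5, RNF146 and CSNK1A1L always were. BTRC was added after its values were seen, as was the choice to name, relative to T0, FBXW11 and the genes called higher under drug. Neighbours were taken from the RefSeq order of genes. Alternatives covered scaling, reference, filters, collapse over guides, prior count, tool (DESeq2 1.42.0 for guides), the replicate block and leaving out each library.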

Additional observations from a re-analysis of the deposited data

Results flagged for a closer look

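The effect of losing TBL1XR1 differed between the drugs. Relative to untreated cells, its L2FC was 0.25 under erlotinib (adjusted p = 0.0305) and -0.10 under osimertinib (adjusted p = 0.395), and the difference between the drugs, tested directly with limma, was 0.35 ± 0.07 (adjusted p = 0.0147 over all genes, 2 libraries per group). The difference missed the threshold without erlotinib replicate 1 (0.39, adjusted p = 0.0545), erlotinib replicate 2 (0.33, adjusted p = 0.146) or osimertinib replicate 2 (0.28, adjusted p = 0.132). The doses of the drugs differ.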

How the results depend on the processing

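The osimertinib gain of AXIN1 relative to untreated was called under all 8 alternatives of processing, with an L2FC between 0.52 and 0.59. With each library left out in turn, the L2FC lay between 0.49 and 0.59. Of the L2FC values of the genes named, over all comparisons and alternatives, 2806 kept their call or stayed within 1 SD, 192 lost a call, 77 gained one and 189 moved by more than 1 SD without a call, and no called value changed sign. Counts relative to T0 moved with the reference. With TMM scaling and no subtraction of non-targeting guides, 0 of the 10 genes were called for untreated relative to T0 (3 in the main setting) and 1 for erlotinib relative to T0 (5), and counts over all genes were 1998 (8223), 2426 (7335) and, for osimertinib, 4154 (7973). With the median of all targeting guides as reference they were 0 and 1 of the 10 genes, and 2001, 2431 and 4121 of all genes. With guides under a mean of 100 reads left out, 1 of the 10 genes was called for erlotinib relative to untreated (2). With the mean over guides, 5 were called for osimertinib relative to T0 (3). With edgeR on summed counts, 1 was called between the drugs (0), and all genes called were 2010 for erlotinib relative to untreated (1266), 3022 for osimertinib relative to untreated (1801) and 527 between the drugs (243). Of the 37 guides, edgeR with TMM scaling and DESeq2 each called 0 for untreated relative to T0 (2), and DESeq2 called 1 for erlotinib relative to untreated (4) and 3 for osimertinib relative to T0 (9).

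When each library was left out in turn, the number of the 10 genes called ranged from 0 to 3 for untreated relative to T0, 1 to 5 for erlotinib relative to T0, 0 to 2 for erlotinib relative to untreated and 1 to 3 for osimertinib relative to untreated. All genes called ranged from 4640 to 9065 for untreated relative to T0, 4352 to 8251 for erlotinib relative to T0, 5273 to 8147 for osimertinib relative to T0, 665 to 1590 for erlotinib relative to untreated, 823 to 1720 for osimertinib relative to untreated and 66 to 273 between the drugs. Guides called ranged from 0 to 5 for untreated relative to T0, 1 to 8 for erlotinib relative to T0, 5 to 12 for osimertinib relative to T0, 1 to 4 for erlotinib relative to untreated and 2 to 6 for osimertinib relative to untreated. A group left with 1 library was assumed to vary like the others. The causes were not tested.

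Libraries of the same replicate number did not deviate together (r between -0.0035 and 0.016 over 6 pairs of groups), so the numbers were not taken as a pairing. With the replicate number as a block, 2 of the 10 genes were called for erlotinib relative to untreated, 3 for osimertinib relative to untreated and 0 between the drugs, and all genes called were 1277, 1791 and 267. These blocked counts were within 1.5 times the main ones. With 2 libraries a group, a median of 445 to 549 reads per guide and at most 4 guides a gene, small changes in weakly represented knockouts could not be resolved. The CSNK1A1 changes under drug were called, but its untreated and osimertinib libraries lay far apart and its guide 4 had a mean of 55.3 reads.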
